A study of Mus musculus with 20 samples.

Results

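The genes described here are 34 components of the T cell receptor complex and of its signalling pathway, taken as a list of mouse gene symbols. All 34 were found among the 55260 genes to which the transcript counts of the study were summed. By role they were 6 receptor and coreceptor chains, 5 kinases, 11 adaptors, 4 effector enzymes and exchange factors, and 8 surface receptors. The study sorted 4 populations from tumours of MC38-OVA, a mouse colon carcinoma line made to express the model antigen ovalbumin, grown in C57BL/6 mice. They were tumour-infiltrating CD8 T cells, CD11c+CD11b- and CD11c+CD11b+ cells, both labelled as dendritic cells (DCs), and CD11c-CD11b+ myeloid cells. Each population was taken after 5 treatments: 8 Gy of focal radiotherapy (RT) on day 12 with antibodies against both SIRPa and PD-1, RT with anti-PD-1, RT with anti-SIRPa, RT alone, and no treatment, which the study's design text gives as sham irradiation. Anti-SIRPa, against the phagocyte receptor that binds CD47, was given at 400 μg a dose, and anti-PD-1, against an inhibitory receptor of activated T cells, at 250 μg a dose. Tumours were taken on day 17. Each of the 20 libraries held the pooled leukocytes of 10 tumours, 1 a mouse, so that no population and treatment had a second library.

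The T cell receptor binds antigen through its variable chains and signals through the CD3 chains and the zeta chain, whose cytoplasmic tails carry tyrosine motifs known as ITAMs. The coreceptor CD8 brings the kinase LCK to the complex, LCK phosphorylates the ITAMs, and ZAP-70 then binds them and phosphorylates the adaptors LAT and SLP-76, which gather PLCG1, VAV1 and other effectors. Natural killer (NK) cells have no T cell receptor, but use the zeta chain, LCK, ZAP-70 and several of the same adaptors behind their own receptors, and myeloid cells use SLP-76 and VAV1 behind other ITAM receptors.

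The promoters of 6 members are shown because these genes behaved differently in the CD11c+CD11b- sort: the chains Cd3d, Cd3e and Cd3g were low there, whereas Cd247, Lck and Zap70 stood at 25.9 to 43.1% of their level in irradiated CD8 T cells. The windows run from 250 bases before to 50 bases after the RefSeq gene start in GRCm38.p6 and are printed 5′ to 3′ on the gene's strand, with both orientations of the E protein motif (CAGGTG, and its reverse complement CACCTG) in capitals. They are chr9:44981536-44981835 on the plus strand for Cd3d, chr9:45009562-45009861 on the minus strand for Cd3e, chr9:44980382-44980681 on the minus strand for Cd3g, chr1:165788431-165788730 on the plus strand for Cd247, chr4:129573592-129573891 on the minus strand for Lck and chr1:36761548-36761847 on the plus strand for Zap70.
Cd3d: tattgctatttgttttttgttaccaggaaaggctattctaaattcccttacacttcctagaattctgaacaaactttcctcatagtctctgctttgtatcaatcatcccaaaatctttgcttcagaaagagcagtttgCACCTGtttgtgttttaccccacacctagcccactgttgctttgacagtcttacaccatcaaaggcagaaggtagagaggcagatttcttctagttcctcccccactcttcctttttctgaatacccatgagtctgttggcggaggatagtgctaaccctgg
Cd3e: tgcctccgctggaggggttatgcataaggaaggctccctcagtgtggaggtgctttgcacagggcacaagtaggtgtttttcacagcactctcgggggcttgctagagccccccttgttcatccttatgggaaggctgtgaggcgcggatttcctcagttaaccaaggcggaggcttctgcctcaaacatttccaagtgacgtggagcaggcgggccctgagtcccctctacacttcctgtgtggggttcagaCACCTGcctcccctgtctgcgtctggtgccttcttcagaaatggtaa
Cd3g: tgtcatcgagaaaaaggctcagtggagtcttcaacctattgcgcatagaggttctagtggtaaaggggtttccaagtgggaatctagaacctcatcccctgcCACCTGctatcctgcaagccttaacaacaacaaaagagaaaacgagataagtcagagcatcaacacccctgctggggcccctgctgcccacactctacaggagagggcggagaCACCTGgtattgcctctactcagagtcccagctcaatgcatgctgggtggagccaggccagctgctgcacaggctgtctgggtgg
Cd247: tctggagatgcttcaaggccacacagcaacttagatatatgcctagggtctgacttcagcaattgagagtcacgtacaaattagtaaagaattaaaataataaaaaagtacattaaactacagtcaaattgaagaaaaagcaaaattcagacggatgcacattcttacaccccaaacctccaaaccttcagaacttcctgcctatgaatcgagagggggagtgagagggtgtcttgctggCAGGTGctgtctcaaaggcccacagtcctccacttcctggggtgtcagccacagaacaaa
Lck: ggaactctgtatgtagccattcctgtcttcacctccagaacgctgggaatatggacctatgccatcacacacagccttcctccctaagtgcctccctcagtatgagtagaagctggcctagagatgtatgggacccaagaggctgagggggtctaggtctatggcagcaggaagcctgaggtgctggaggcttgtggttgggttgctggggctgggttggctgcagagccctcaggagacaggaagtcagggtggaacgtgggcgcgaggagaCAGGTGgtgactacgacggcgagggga
Zap70: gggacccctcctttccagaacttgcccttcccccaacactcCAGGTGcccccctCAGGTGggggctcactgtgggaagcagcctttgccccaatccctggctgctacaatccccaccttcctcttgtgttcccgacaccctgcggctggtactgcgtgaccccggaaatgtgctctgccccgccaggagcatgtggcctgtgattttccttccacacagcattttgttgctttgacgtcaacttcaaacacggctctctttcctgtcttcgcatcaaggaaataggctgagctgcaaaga
The set of RefSeq promoter windows used held 24 of the 34 members, and the others were not searched. CAGGTG, read on both strands, was in 13 of these 24 windows (54.2%), against 20.3% of all 32544 windows of the set. All 6 promoters printed above held it, in both the genes that were low in CD11c+CD11b- cells and those that were not. Other motifs were searched on both strands too. The TCF1/LEF1 letters CTTTGA were in 33.3% of the members' windows and 16.0% of all, and the ETS letters AGGAAG in 45.8% and 35.1%. The RUNX letters TGTGGT were in 25.0% and 16.7%, and AGATAA, the letters bound by factors of the GATA family, in 16.7% and 11.2%. The motif set in capitals was chosen after these shares were seen, and a match describes the letters of the window and not a bound site.

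Levels are counts-per-million (CPM) values scaled by TMM factors. Members are ranked against each other as transcripts-per-million (TPM) values, which allow for length. Sums over genes, and shares of such sums, are in CPM and do not allow for length. The libraries held 21522743 to 35696925 counts, and none duplicated another. The library labelled untreated CD8 T stood apart from the 4 irradiated CD8 T libraries. Its 12 macrophage markers summed to 19305 CPM, against 1271 to 2848 CPM in the irradiated ones, and 26 of the 34 members stood there at under 10% of their irradiated mean. For the comparisons of CD8 T cells with other sorts, the members' counts and the members' named values are given with and without it; the counts for other pathway genes include it. The CD11c+CD11b- sort held all 9 NK cell markers at 10 CPM or more in each of its 5 libraries, with sums of 1740 to 3054 CPM, against 123 to 204 CPM in CD11c+CD11b+ cells and 67.6 to 311 CPM in CD11c-CD11b+ cells. Its conventional type 1 DC (cDC1) markers summed to 208 to 2048 CPM. The CD11c+CD11b+ sort held macrophage marker sums of 7823 to 15071 CPM beside cDC1 sums of 502 to 762 CPM.

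**Figure D1:**
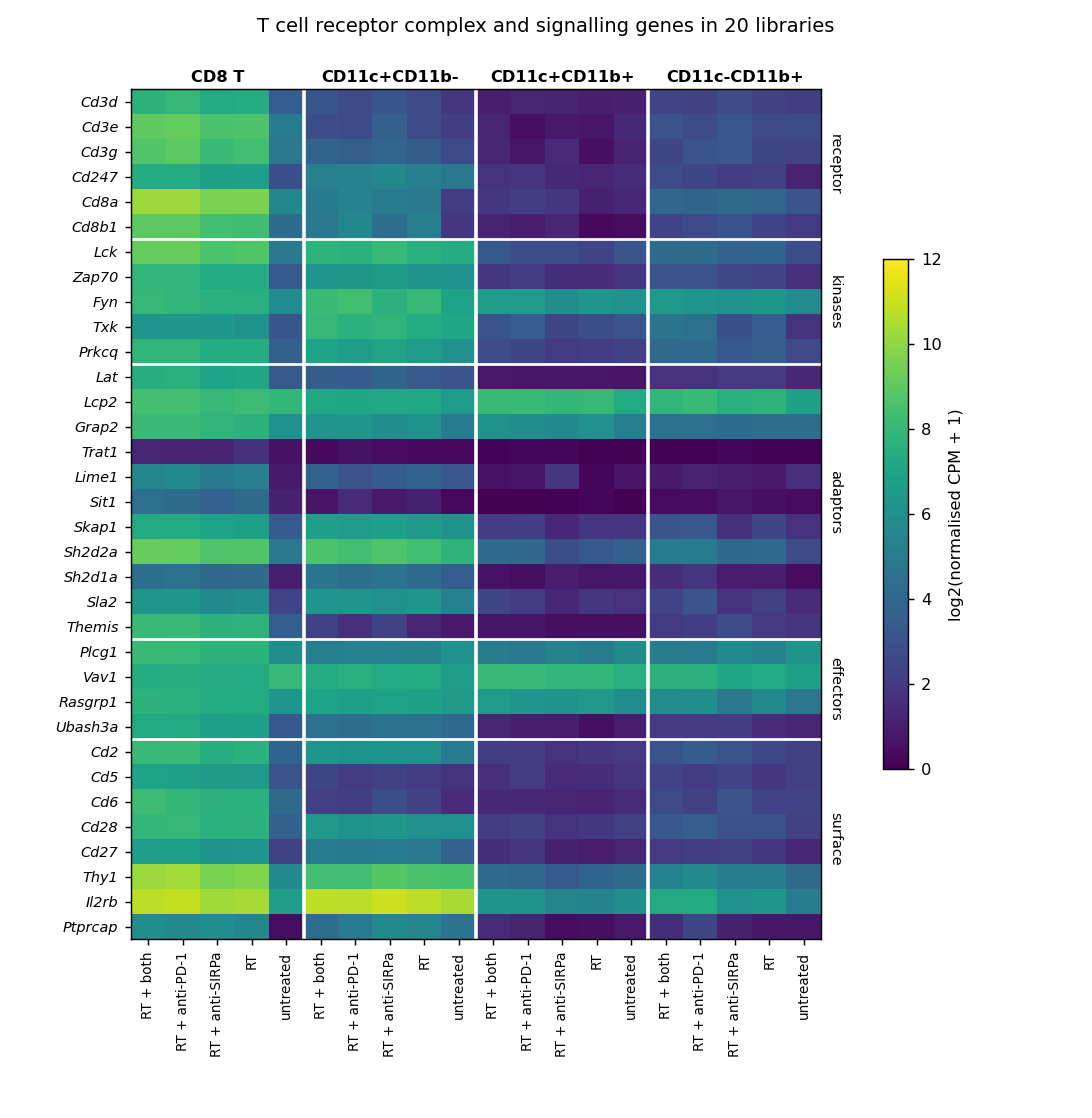
Level of each of the 34 members, as log2 of normalised CPM plus 1, in the 20 libraries; columns are libraries by population and treatment, and rows are genes by role. Most rows are brightest in the irradiated CD8 T libraries, a block of rows is also bright in CD11c+CD11b- cells, and Lcp2 and Vav1 are bright in all 4 populations.

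Summed over the 34 members, the irradiated CD8 T libraries held 11250 CPM after RT with both antibodies, 11659 CPM after RT with anti-PD-1, 7958 CPM after RT with anti-SIRPa and 8344 CPM after RT alone, against 1234 CPM in the library labelled untreated CD8 T. The CD11c+CD11b- libraries held 3261 to 5111 CPM, the CD11c+CD11b+ libraries 694 to 1030 CPM and the CD11c-CD11b+ libraries 532 to 1069 CPM. By this sum the library labelled untreated CD8 T held less than every CD11c+CD11b- library. Its Cd3d, Cd3e and Cd3g, however, summed to 66.9 CPM, against 11.8 to 34.2 CPM in the CD11c+CD11b- libraries. Il2rb alone had 103 CPM in that library, against 1391 to 2190 CPM in the CD11c+CD11b- libraries. By the mean of 5 libraries, 28 members were highest in CD8 T cells, 5 in CD11c+CD11b- cells (Sla2, Sh2d1a, Txk, Fyn and Il2rb) and 1 in CD11c+CD11b+ cells (Vav1). Without the library labelled untreated CD8 T the counts were 29, 4 and 1, with Sla2 highest in CD8 T cells. The untreated libraries of the other sorts were kept there. By the mean of the 4 irradiated libraries of every population the counts were 28, 5 and 1, with Sla2 again highest in CD11c+CD11b- cells. In such sorted bulk samples, fewer cells of a type and less RNA per cell cannot be told apart.

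Set against the mean of the 3 myeloid sorts with the treatment pool as a term in the model, 33 of the 34 members were higher in CD8 T cells and none was lower (edgeR adjusted p under 0.05, the threshold for a call throughout), where 19.5% of all genes tested were called higher. The median log2 fold change was 3.73 over the members and 0.02 over all genes. Without the library labelled untreated CD8 T, 33 members were again higher and Vav1 was lower (log2 fold change -0.28), in a comparison in which 50.6% of all genes were called in either direction.

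The receptor chains had the widest gap. Cd3e, which pairs with the other CD3 chains and is required for the receptor to reach the surface, had 529 CPM after RT with both antibodies, 575 after RT with anti-PD-1, 381 after RT with anti-SIRPa and 397 after RT alone in CD8 T cells, and 30.0 in the library labelled untreated. It ran from 3.62 to 12.0 CPM in the CD11c+CD11b- libraries, from 0.393 to 1.63 CPM in the CD11c+CD11b+ libraries and from 5.34 to 8.56 CPM in the CD11c-CD11b+ libraries. Each CD8 T library lay above each myeloid library, and the fold change was 102 (log2 fold change 6.68 ± 0.42 SE, edgeR adjusted p = 1.66e-07; 7.08 ± 0.23 without the library labelled untreated). All 6 receptor and coreceptor chains were higher in CD8 T cells, with a median log2 fold change of 5.97, and 6.33 without the library labelled untreated. The smallest was that of Cd247, the zeta chain, at 3.92 ± 0.35 (edgeR adjusted p = 2.88e-06), and 4.32 ± 0.17 without that library. Its CD11c+CD11b- libraries held 26.7 to 45.8 CPM.

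Among the adaptors, all 11 were higher in CD8 T cells, over a wide range of sizes. Themis, a regulator of receptor signalling needed for thymocyte selection, ran from 213 to 292 CPM in the irradiated CD8 T libraries and had 11.0 CPM in the library labelled untreated, against 0.367 to 5.99 CPM over the 15 myeloid libraries (log2 fold change 6.75 ± 0.38, edgeR adjusted p = 1.6e-07; 7.17 ± 0.21 without the library labelled untreated). Lcp2, the gene of SLP-76, had 245 to 339 CPM over the 5 CD8 T libraries, against 99.7 to 146 CPM in CD11c+CD11b- cells, 155 to 281 CPM in CD11c+CD11b+ cells and 116 to 267 CPM in CD11c-CD11b+ cells. The CD8 T range of Lcp2 overlapped with those of CD11c+CD11b+ and CD11c-CD11b+ cells, but lay above that of CD11c+CD11b- cells. Its log2 fold change was 0.67 ± 0.08 (edgeR adjusted p = 4.09e-05), the same as that of Fyn (0.67 ± 0.16, edgeR adjusted p = 0.00561). Without the library labelled untreated the log2 fold changes were 0.57 ± 0.07 for Lcp2 and 0.88 ± 0.11 for Fyn.

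Vav1, a guanine nucleotide exchange factor, was the member with no call. In CD8 T cells it had 174 CPM after RT with both antibodies, 179 after RT with anti-PD-1, 148 after RT with anti-SIRPa and 155 after RT alone, and 252 CPM in the library labelled untreated, within the 104 to 288 CPM of the myeloid libraries (log2 fold change 0.01 ± 0.15, edgeR adjusted p = 0.98). The other effectors were higher in CD8 T cells. They were Plcg1, the phospholipase that makes the calcium messenger (log2 fold change 2.39, and 2.74 without the library labelled untreated), Rasgrp1, which activates RAS (1.11, and 1.21 without it), and Ubash3a, a negative regulator of the receptor (4.72, and 5.11 without it).

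Per length, the most abundant members in the 4 irradiated CD8 T libraries were the surface glycoprotein gene Thy1 at 1192 ± 239 TPM (SD, n = 4), Cd3g at 759 ± 166 TPM, Il2rb, the beta chain of the IL-2 and IL-15 receptors, at 759 ± 137 TPM, Cd8a at 692 ± 138 TPM and Cd3e at 633 ± 112 TPM. Neighbours in this order after Thy1 did not differ beyond their SDs. The lowest were the transmembrane adaptors Sit1 at 27.4 ± 3.86 TPM and Trat1 at 0.663 ± 0.189 TPM. In the irradiated CD11c+CD11b- libraries the order was led by Il2rb (937 ± 75.2 TPM), Thy1 (447 ± 40.2 TPM), the adaptor gene Sh2d2a (233 ± 31.4 TPM) and Lck (223 ± 28.5 TPM), while Cd3e stood 27th and Themis 33rd of the 34. In both CD11c+CD11b+ and CD11c-CD11b+ cells the first 2 places were held by Vav1 and Lcp2, at 120 to 156 TPM.

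**Figure D2:**
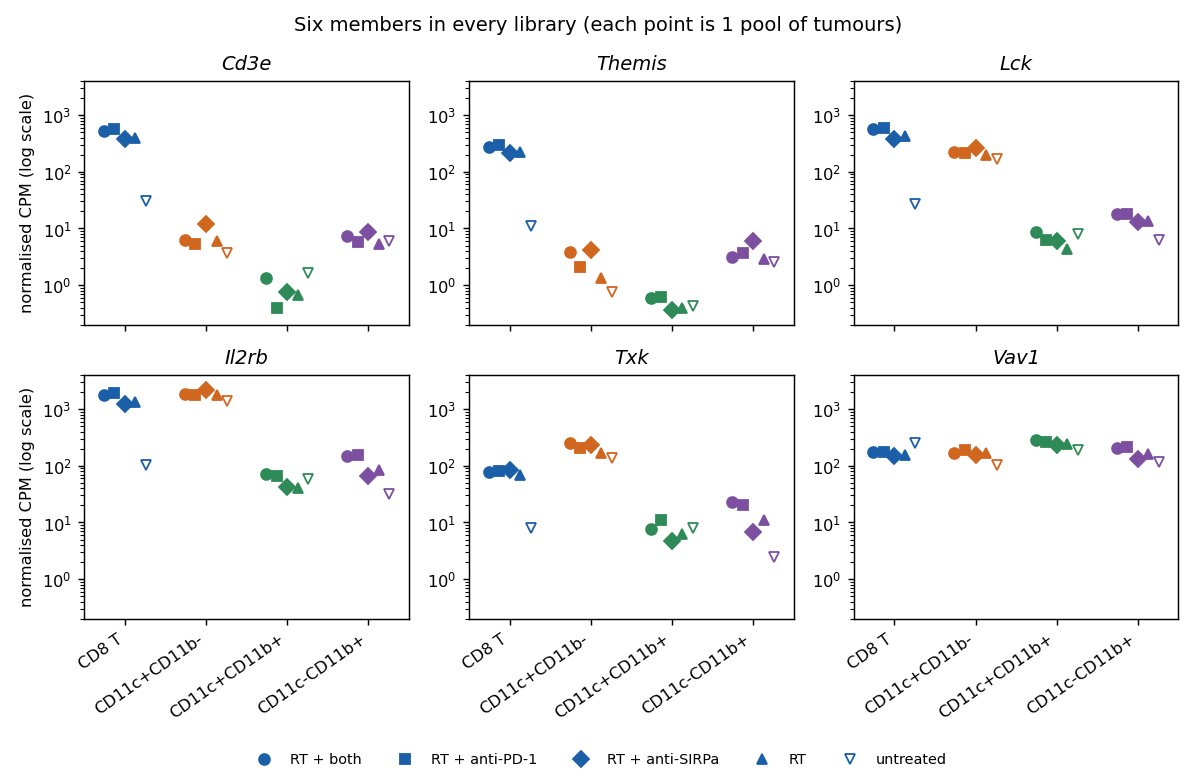
Normalised CPM on a log axis for 6 members in each of the 20 libraries, by population; each point is 1 library and open symbols are untreated. Cd3e and Themis are high in the irradiated CD8 T libraries, Lck and Il2rb there and in CD11c+CD11b- cells, Txk is highest in CD11c+CD11b- cells, and the Vav1 ranges of the populations overlap.

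The CD11c+CD11b- sort divided the list. As a percentage of the mean of the 4 irradiated CD8 T libraries, the mean of its 5 libraries was under 10% for 10 members, from 10 to 50% for 13 and 50% or more for 11, with a median of 27.6%. Set against all 5 CD8 T libraries the same counts were 10, 11 and 13. In the CD11c+CD11b+ and CD11c-CD11b+ sorts 28 members were under 10%, with medians of 1.74% and 3.27%.

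The 10 members under 10% were Themis (0.972%), Cd3e (1.41%), Cd6 (1.64%), Cd8a (2.58%), Cd3g (2.83%), Cd3d (3.05%), Cd5 (3.27%), Sit1 (5.02%), Cd8b1 (6.18%) and Lat (6.54%). They thus held 5 of the 6 receptor and coreceptor chains, the central adaptor LAT, and the scavenger-type receptors CD5 and CD6, which restrain T cell signalling. The members at 50% or more included the kinase genes Prkcq (50.7%), Fyn (109%) and Txk (255%), the adaptors Sh2d2a (66.7%), Skap1 (67.8%), Sla2 (97.0%) and Sh2d1a (103%), and Il2rb (114%). Between them stood Cd247 (25.9%), Thy1 (36.6%), Zap70 (40.5%) and Lck (43.1%). The last in the low set and the first above it were Lat at 6.54% and Ubash3a at 15.2%.

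**Figure D3:**
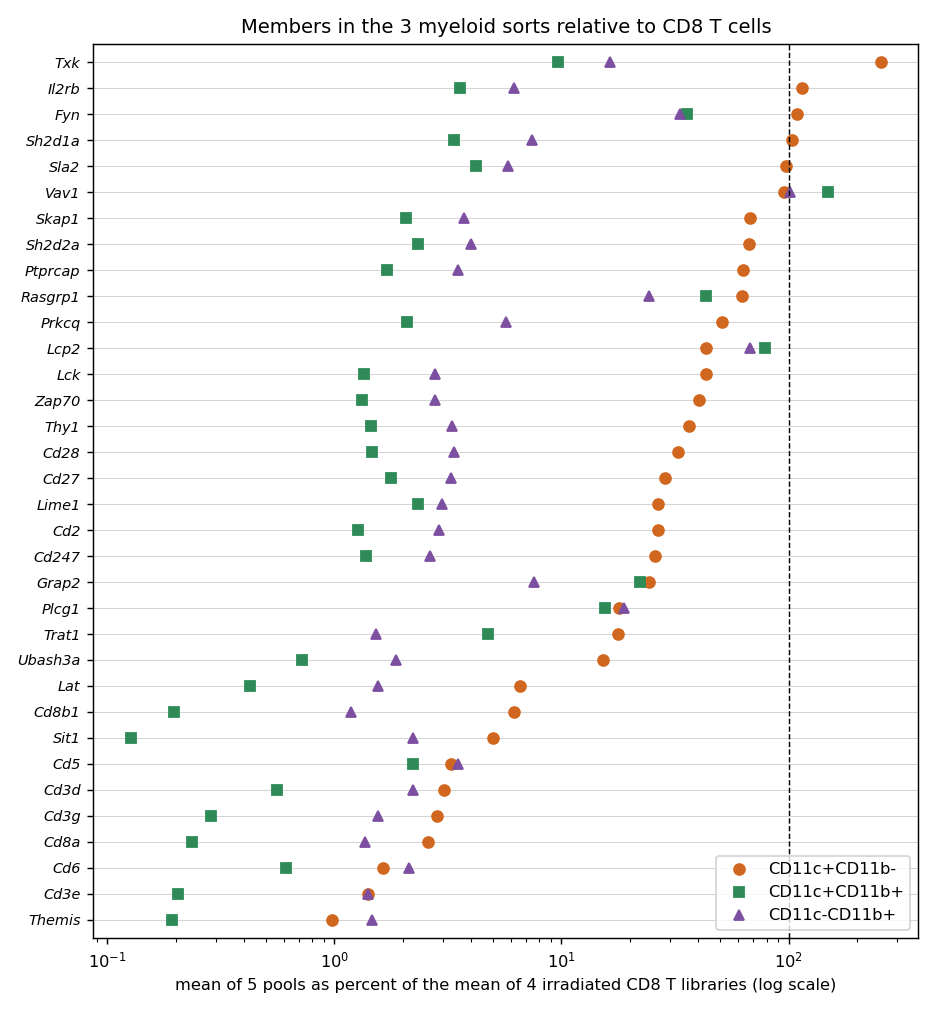
Mean of the 5 libraries of each myeloid sort, as a percentage of the mean of the 4 irradiated CD8 T libraries, on a log axis, with the members ordered by their CD11c+CD11b- value; the dashed line marks 100%. The CD11c+CD11b- values run from 0.972% for Themis to 255% for Txk, and most values of the other myeloid sorts lie below 10%.

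In the test of CD8 T against CD11c+CD11b- cells, 13 of the 34 members were higher in CD8 T cells, where 1.55% of all genes were, and none was lower. These were Cd3d, Cd3e, Cd3g, Cd8a, Cd8b1, Lat, Lcp2, Themis, Cd5, Cd6, Trat1, Grap2 and Sit1. None of the 5 kinases and none of the 4 effectors was called. Without the library labelled untreated CD8 T, 26 members were higher and Txk was lower, where 18.6% of all genes were called in either direction, and 7 members (Sla2, Sh2d2a, Sh2d1a, Ptprcap, Vav1, Fyn and Il2rb) were not called. Leaving out the pool of RT alone, of RT with anti-SIRPa or of RT with both antibodies left 7 members called, and leaving out that of RT with anti-PD-1 left 10.

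Lck had 577 CPM after RT with both antibodies, 586 after RT with anti-PD-1, 387 after RT with anti-SIRPa and 432 after RT alone in CD8 T cells, and 26.6 in the library labelled untreated. In CD11c+CD11b- cells it had 224, 211, 267 and 197 CPM after the same irradiated treatments and 170 CPM untreated. The irradiated CD8 T libraries lay above all 5 CD11c+CD11b- libraries, and the library labelled untreated CD8 T lay below them. The log2 fold change was 0.5 ± 0.64 with all libraries (edgeR adjusted p = 0.763) and 1.1 ± 0.15 without that library (edgeR adjusted p = 0.00378).

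For Cd3e the same comparison gave 5.49 ± 0.64 (edgeR adjusted p = 0.00834), and 6.0 ± 0.3 without the library labelled untreated (edgeR adjusted p = 9.11e-05). Txk, a TEC family kinase, stood on the other side. It had 77.5, 82.1, 83.9 and 67.6 CPM in the irradiated CD8 T libraries and 8.13 CPM in the one labelled untreated, against 136 to 255 CPM in CD11c+CD11b- cells, with no overlap. Its log2 fold change was -1.94 ± 0.44 with all libraries (edgeR adjusted p = 0.0639) and -1.48 ± 0.1 without the one labelled untreated (edgeR adjusted p = 0.000215).

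The surface receptors spread over the whole range. Cd6 had 301, 249, 208 and 201 CPM in CD8 T cells after RT with both antibodies, with anti-PD-1, with anti-SIRPa and alone and 16.5 CPM in the library labelled untreated, against 1.75 to 6.46 CPM in CD11c+CD11b- cells. Cd28, the main costimulatory receptor of T cells, had 194 to 257 CPM in the irradiated CD8 T libraries and 12.3 CPM in the one labelled untreated, against 63.5 to 87.7 CPM in CD11c+CD11b- cells. Cd2, an adhesion receptor, had 179 to 290 CPM and 13.4 CPM in the same CD8 T libraries, against 31.0 to 77.0 CPM. Cd27, a costimulatory receptor of the TNF receptor family found on T and NK cells, lay with these: it had 72.0 to 108 CPM and 4.05 CPM in CD8 T cells, against 12.8 to 31.1 CPM. For each of the 4 genes the irradiated CD8 T libraries did not overlap with the CD11c+CD11b- libraries.

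Among the intracellular members the ranges did overlap for several genes. Sh2d2a, which encodes the LCK-binding protein TSAD, had 408 to 599 CPM in the irradiated CD8 T libraries, against 219 to 411 CPM in CD11c+CD11b- cells. Sla2, a dampener of receptor signalling, had 52.8 to 83.3 CPM, against 37.9 to 79.3 CPM. Sh2d1a, the adaptor SAP of the SLAM receptors, had 15.8 to 21.3 CPM, against 10.9 to 24.2 CPM, so that none of the 3 separated the populations. Skap1, which links the receptor to integrins, had 113 to 159 CPM, against 69.6 to 109 CPM, and Prkcq, the kinase PKC-theta, 169 to 237 CPM, against 66.8 to 127 CPM. The transmembrane adaptor gene Lime1 had 27.7 to 51.7 CPM, against 7.4 to 13.3 CPM, and Ubash3a 107 to 156 CPM, against 16.4 to 23.0 CPM. These 4 were higher in every irradiated CD8 T library than in any CD11c+CD11b- library.

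Il2rb had, in CD8 T cells, 1766 CPM after RT with both antibodies, 1927 after RT with anti-PD-1, 1248 after RT with anti-SIRPa, 1343 after RT alone and 103 in the library labelled untreated, against 1817, 1811, 2190, 1760 and 1391 CPM in the CD11c+CD11b- libraries of the same treatments. The irradiated libraries of both populations overlapped, and the log2 fold change without the library labelled untreated CD8 T was -0.32 ± 0.15 (edgeR adjusted p = 0.199). Of the 9 NK markers, 7 were lower in CD8 T than in CD11c+CD11b- cells, where 2.74% of all genes were. That test included the library labelled untreated CD8 T. Ncr1, the NK receptor gene NKp46, had 1.14 to 1.99 CPM in the CD8 T libraries, against 205 to 301 CPM in the CD11c+CD11b- libraries. The receptor constant gene Trac had 5.67 to 15.8 CPM in the CD11c+CD11b- libraries, against 353 to 512 CPM in the irradiated CD8 T libraries. In the same libraries Trbc1 had 75.6 to 115 CPM, against 183 to 252 CPM, and Trbc2 35.6 to 68.5 CPM, against 308 to 608 CPM. The delta chain constant gene Trdc had 28.5 to 49.0 CPM, against 1.39 to 3.66 CPM. The part of NK cells, or of other lymphocytes, in the members' levels in this sort was not tested.

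Against CD11c+CD11b+ cells, 27 of the 32 members tested were higher in CD11c+CD11b- cells, where 23.1% of all genes were, and 2 were lower, where 22.3% were (edgeR adjusted p under 0.05). The median log2 fold change was 4.12 over the members and 0 over all genes. Sit1 and Trat1 did not pass the filter on low counts. Lck had 224, 211, 267 and 197 CPM in the CD11c+CD11b- libraries of RT with both antibodies, with anti-PD-1, with anti-SIRPa and alone and 170 CPM in the untreated one, against 8.81, 6.36, 5.97, 4.27 and 7.99 CPM in the CD11c+CD11b+ libraries of the same treatments (log2 fold change 5.01 ± 0.2, edgeR adjusted p = 7.21e-06). The groups were far apart, and Il2rb (5.01), Skap1 (5.05) and Ptprcap, which encodes a protein bound to CD45 (5.18), showed differences of the same size. Cd3e differed less, with a log2 fold change of 2.78 ± 0.44 (edgeR adjusted p = 0.00203). Lower in CD11c+CD11b- cells were Lcp2 (-0.85 ± 0.07) and Vav1 (-0.67 ± 0.07), the pair that phagocytes also use. All 9 NK markers were higher and all 12 macrophage markers lower in the same comparison.

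Against CD11c-CD11b+ cells, 23 of 33 members were higher in CD11c+CD11b- cells, where 23.0% of all genes were, and 1, Lcp2, was lower, where 24.1% were. All 5 kinases were higher, with Lck at a log2 fold change of 4.02 ± 0.2 (edgeR adjusted p = 2.06e-05), but Cd3d, Cd3e and Cd8a were not called. Cd3e had 6.15, 5.39, 12.0 and 5.99 CPM in the CD11c+CD11b- libraries of RT with both antibodies, with anti-PD-1, with anti-SIRPa and alone and 3.62 CPM in the untreated one, against 7.31, 5.89, 8.56, 5.34 and 5.91 CPM in the CD11c-CD11b+ libraries of the same treatments. These ranges overlapped (log2 fold change -0.09 ± 0.19, edgeR adjusted p = 0.734). In each sort the RT with anti-SIRPa library was the highest.

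The CD11c+CD11b+ and CD11c-CD11b+ sorts also differed from each other. Of 32 members, 17 were lower in CD11c+CD11b+ cells, where 12.9% of all genes were, and 4 were higher (Lcp2, Grap2, Vav1 and Rasgrp1), where 12.0% were. The 17 held 5 of the 6 receptor and coreceptor chains: Cd3e had 0.393 to 1.63 CPM in CD11c+CD11b+ cells, against 5.34 to 8.56 CPM in CD11c-CD11b+ cells (log2 fold change -2.87 ± 0.29, edgeR adjusted p = 0.000456). Grap2, the adaptor GADS, went the other way, with 70.1, 60.0, 50.7 and 65.8 CPM in the CD11c+CD11b+ libraries of RT with both antibodies, with anti-PD-1, with anti-SIRPa and alone and 35.7 CPM untreated, against 17.4 to 22.2 CPM in CD11c-CD11b+ cells. These did not overlap (log2 fold change 1.49 ± 0.12, edgeR adjusted p = 0.000213). With all 20 libraries in 1 fit, 2 members were higher and 9 lower. Of the receptor constant genes, which are no members, Trac had 1.03 to 2.1 CPM in CD11c+CD11b+ cells and 3.81 to 9.62 CPM in CD11c-CD11b+ cells, and Trbc2 had 2.14 to 2.52 CPM and 4.23 to 12.3 CPM in the same sorts. The part of T cells in these differences was not tested.

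Irradiated CD8 T libraries were compared with the library labelled untreated CD8 T, which went against its label. Of 33 members tested, 31 were higher in the irradiated libraries, where 14.8% of all genes were, and 1, Vav1, was lower, where 17.0% were (edgeR adjusted p under 0.05). The median log2 fold change was 3.96 over the members and 0.04 over all genes. Cd8a had 1181 CPM after RT with both antibodies, 1185 after RT with anti-PD-1, 760 after RT with anti-SIRPa and 796 after RT alone, against 48.2 CPM in the library labelled untreated (log2 fold change 4.33 ± 0.4, edgeR adjusted p = 0.000693). The receptor chains lay in a narrow band, from 3.88 for Cd3g to 4.49 for Cd8b1.

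As a share of its irradiated mean, the level in the library labelled untreated ran from 0.72% for Ptprcap to 153% for Vav1, with a median of 6.12%. The members over 10% were Txk (10.5%), Plcg1 (24.3%), Grap2 (24.8%), Fyn (25.3%), Trat1 (29.6%), Rasgrp1 (43.5%), Lcp2 (79.8%) and Vav1. Among them, Lcp2, Vav1, Fyn, Rasgrp1 and Plcg1 each had 26.0 CPM or more in every CD11c+CD11b+ and CD11c-CD11b+ library as well. The macrophage markers moved the opposite way, with 12 of 12 lower in the irradiated libraries, and so did 14 of 15 genes of the myeloid ITAM pathway, such as Fcer1g (log2 fold change -2.82 ± 0.27, edgeR adjusted p = 0.000791) and Syk (-2.65 ± 0.27, edgeR adjusted p = 0.000858). With 1 untreated library, irradiation and the make-up of that sort cannot be told apart.

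In the myeloid sorts no member was called between irradiated and untreated libraries by edgeR. Counts at an unadjusted p under 0.05 or by DESeq2, here and in the antibody tests, are given without a share of all genes. They are thus not set against a background. In CD11c+CD11b+ cells 0 of 29 members were called, where 0.888% of all genes were, with 5 at an unadjusted p under 0.05 and 3 called by DESeq2. In CD11c-CD11b+ cells 0 of 31 were called, where 0% of all genes were, with 15 at an unadjusted p under 0.05 and 10 called by DESeq2. In CD11c+CD11b- cells 0 of 32 were called, where 0.0185% of all genes were, with 19 at an unadjusted p under 0.05 and 16 called by DESeq2, and 30 of the 32 log2 fold changes were positive.

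The median log2 fold change in CD11c+CD11b- cells was 0.62 over the members and 0.02 over all genes. The CD8 coreceptor chains had the largest differences in the irradiated libraries of this sort. Cd8b1, the beta chain, had 27.2 CPM after RT with both antibodies, 45.6 after RT with anti-PD-1, 19.4 after RT with anti-SIRPa and 33.6 after RT alone, against 2.76 CPM untreated (log2 fold change 3.45 ± 0.58, edgeR adjusted p = 0.0665). Cd8a, the alpha chain, which some DCs also carry as a homodimer, had 27.6, 39.5, 28.7 and 27.2 CPM after the same treatments, against 3.43 CPM untreated (3.1 ± 0.34, edgeR adjusted p = 0.0659). All 4 irradiated libraries lay above the untreated one for both genes. Cd3e, by contrast, had 6.15, 5.39, 12.0 and 5.99 CPM in the irradiated libraries, against 3.62 CPM untreated (0.95 ± 0.51, edgeR adjusted p = 0.295).

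Across the 5 CD11c+CD11b- libraries, Cd8b1 was ordered as the plasmacytoid DC gene Siglech, the cDC1 gene Xcr1 and the coreceptor gene Cd4 were. The order, from the lowest, was untreated, RT with anti-SIRPa, RT with both antibodies, RT alone and RT with anti-PD-1. Siglech had 11.0, 47.3, 124, 172 and 232 CPM in that order, Xcr1 8.25, 30.2, 65.4, 69.9 and 75.6 CPM, and Cd4 5.83, 19.4, 35.2, 56.8 and 72.7 CPM. Of the 7 plasmacytoid DC markers 4 had this order (Siglech, Ccr9, Klk1 and Pacsin1) and Bst2, Tcf4 and Cox6a2 did not, with Tcf4 highest in the untreated library. Of the 7 cDC1 markers 5 had it and Clec9a and Tlr3 did not. Of the 7 monocyte markers 2 had it (Ly6c2 and Plac8), and of the 7 tumour and stroma markers 1 (Epcam). Of the 9 NK and 12 macrophage markers 0 had it, and the share of all genes with this order was not counted. Cd8a and the T cell gene Trac did not follow it either. The 3 genes given by value were chosen after their values were seen. With 5 libraries of 1 each, this is a description, and the part of DCs in the Cd8b1 level was not tested.

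**Figure D4:**
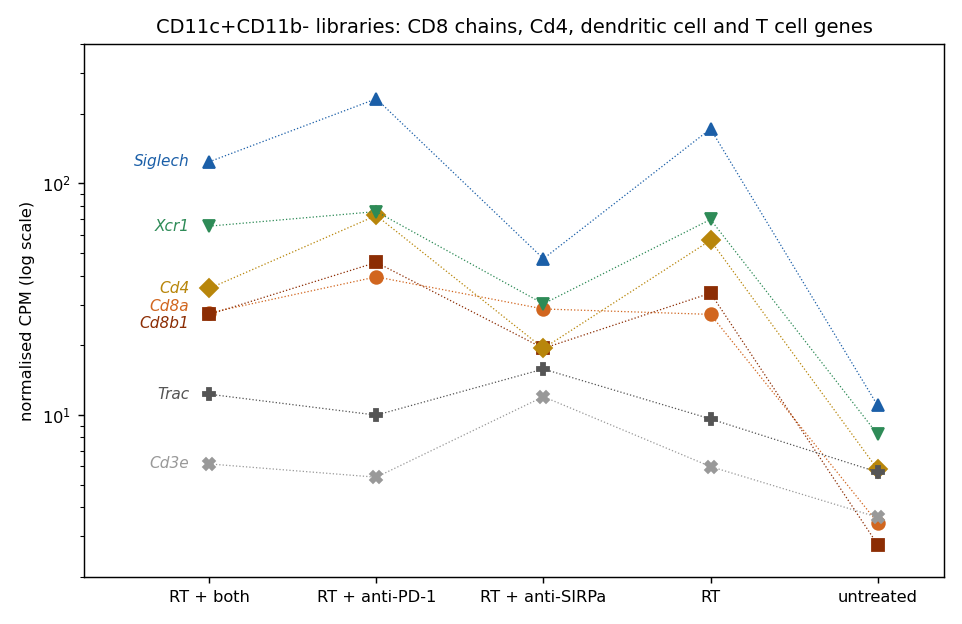
Normalised CPM on a log axis in the 5 CD11c+CD11b- libraries, 1 point a library, for the CD8 chains, Cd4, the plasmacytoid DC gene Siglech, the cDC1 gene Xcr1 and the T cell genes Trac and Cd3e; dotted lines join a gene's points. Cd8b1 goes up and down with Siglech, Xcr1 and Cd4, which were chosen after their values were seen. Cd8a does not keep this order, and Trac and Cd3e are highest in the RT with anti-SIRPa library.

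Anti-PD-1 was tested within the irradiated pools, with 2 libraries that had it against 2 that did not and anti-SIRPa as a second term, which left 1 residual degree of freedom. In CD8 T cells 27 of the 34 members were higher with anti-PD-1, where 3.28% of all genes were, and none was lower (edgeR adjusted p under 0.05). The median log2 fold change was 0.47 over the members and 0.01 over all genes. The 27 were 6 of 6 receptor and coreceptor chains, 4 of 5 kinases, 7 of 11 adaptors, 3 of 4 effectors and 7 of 8 surface receptors.

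Cd247 had the largest difference, with 170 CPM after RT with both antibodies and 173 CPM after RT with anti-PD-1, against 112 CPM after RT with anti-SIRPa and 108 CPM after RT alone (log2 fold change 0.63 ± 0.08, edgeR adjusted p = 0.00349). Cd8a had 1181 and 1185 CPM with anti-PD-1, against 760 and 796 CPM without it (0.6 ± 0.07, edgeR adjusted p = 0.00377). Zap70 had 231 and 227 CPM with anti-PD-1, against 156 and 160 CPM without it (0.53 ± 0.07, edgeR adjusted p = 0.00509). For each of the 3 genes both anti-PD-1 libraries lay above both others.

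The members not called were Lcp2, Ptprcap, Sh2d1a, Sit1, Trat1, Txk and Vav1. Txk had 77.5 and 82.1 CPM with anti-PD-1, against 83.9 and 67.6 CPM without it, so that the groups overlapped (log2 fold change 0.07 ± 0.11, edgeR adjusted p = 0.753). Ptprcap had 58.2 and 48.8 CPM, against 58.9 and 46.2 CPM, and overlapped in the same way (0.02 ± 0.09, edgeR adjusted p = 0.916). Both anti-PD-1 libraries lay above both others for 31 of the 34 members. The exceptions were Trat1, Txk and Ptprcap. The same was true of 26.7% of the 16849 genes with 1 CPM or more in at least 1 irradiated CD8 T library. The members were not filtered in this way.

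These calls depended on the fit. DESeq2 called 22 members and RLE scaling 25, but 0 were called without the filter on low counts, 0 without the anti-SIRPa term and 2 with all populations in 1 fit. Leaving out the library of RT with both antibodies, with the anti-SIRPa term dropped, left 16 calls, and leaving out any other irradiated library left 0. The direction was steadier, with 32 or 33 of the 34 log2 fold changes positive in each of these settings.

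Most members stayed in proportion to the CD3 chains. As a percentage of the summed CPM of Cd3d, Cd3e and Cd3g, 19 of the 31 other members were within 10% of the same value with and without anti-PD-1, 12 were more than 10% lower with it and 0 were more than 10% higher. The median ratio was 0.94. Lck stood at 46.6% of the CD3 sum with anti-PD-1 and 47.2% without it, and Zap70 at 18.3% and 18.2%. The lowest ratios were those of Trat1 (0.54), which had 1.29 to 2.21 CPM in these libraries, Ptprcap (0.71), Txk (0.73), Vav1 (0.81), Lcp2 (0.85) and Sh2d1a (0.85), all members that were not called.

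The macrophage markers summed to 2008 and 1271 CPM in the CD8 T libraries with anti-PD-1, against 2617 and 2848 CPM in those without it. Of the 12, 10 were called lower, where 5.71% of all genes were. Of 15 myeloid ITAM genes, 9 were lower, with Sirpa at a log2 fold change of -0.81 ± 0.16 (edgeR adjusted p = 0.0199) and Tyrobp at -0.68 ± 0.12 (edgeR adjusted p = 0.0154). These calls came from the fit with 1 residual degree of freedom, and the alternatives were followed for the members only. The part of myeloid RNA in the members' differences was not tested.

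**Figure D5:**
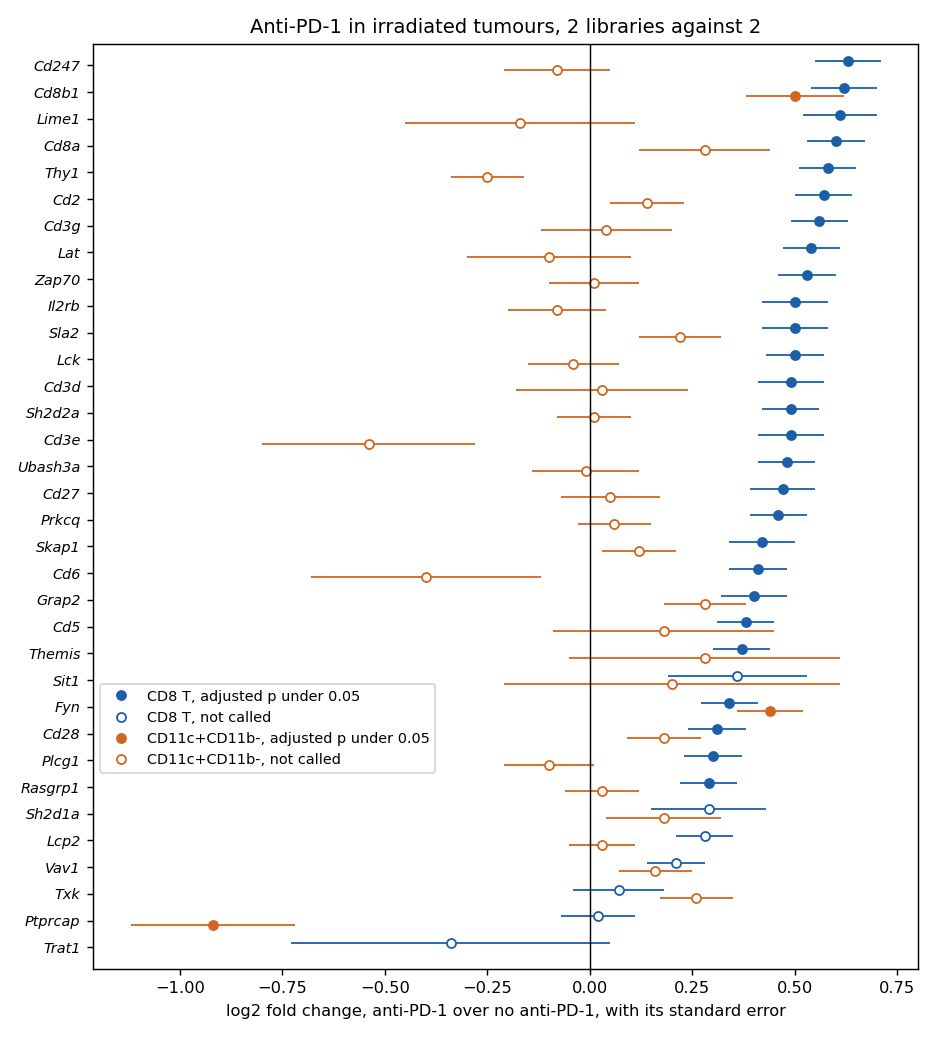
Log2 fold change with anti-PD-1 over without it in irradiated tumours, with its SE, for the members in CD8 T cells (blue) and CD11c+CD11b- cells (orange), ordered by the CD8 T value; filled points had an adjusted p under 0.05. In CD8 T cells 33 of 34 points lie above 0 and most lie between 0.3 and 0.63, while the CD11c+CD11b- points lie on both sides of 0.

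In CD11c+CD11b- cells 2 of 33 members were higher with anti-PD-1 (Fyn and Cd8b1), where 4.27% of all genes were, and 1 was lower (Ptprcap), where 5.94% were, so that these shares were near those of all genes. The median log2 fold change was 0.04. Fyn had 283 and 332 CPM with anti-PD-1, against 207 and 258 CPM without it (0.44 ± 0.08, edgeR adjusted p = 0.0213). Ptprcap had 19.0 and 30.6 CPM with anti-PD-1, against 50.4 and 43.6 CPM without it (-0.92 ± 0.2, edgeR adjusted p = 0.0321), and neither gene's groups overlapped. Both anti-PD-1 libraries lay above both others for 3 members, where 21.7% of genes with 1 CPM or more in an irradiated library of this sort showed this. The difference between the anti-PD-1 effects in CD8 T and CD11c+CD11b- cells was called for 0 of 34 members by edgeR, where 0.160% of all genes were called, with 12 at an unadjusted p under 0.05 (DESeq2 was not run for this). The lowest adjusted p among the members was that of Cd247 (difference 0.72, edgeR adjusted p = 0.148), and Cd3e had 1.05 ± 0.31 (unadjusted p = 0.0092, adjusted p = 0.176). A different response of the 2 populations was thus not shown.

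In CD11c+CD11b+ cells 5 of 30 members were higher with anti-PD-1 (Il2rb, Sh2d2a, Fyn, Ptprcap and Txk), where 3.09% of all genes were, and none was lower. Il2rb had 72.7 and 67.3 CPM with anti-PD-1, against 42.5 and 40.4 CPM without it (log2 fold change 0.8 ± 0.08, edgeR adjusted p = 0.00755). Sh2d2a had 16.1 and 14.6 CPM, against 6.49 and 8.9 CPM (1.05 ± 0.18, edgeR adjusted p = 0.0209). Both anti-PD-1 libraries lay above both others for 21 of the 34 members. The same was true of 23.5% of genes with 1 CPM or more in an irradiated library of this sort. The 5 calls became 3 with DESeq2 and 0 without the filter on low counts or without the anti-SIRPa term.

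In CD11c-CD11b+ cells 0 of 32 members were called by edgeR, where 0% of all genes were, with 15 at an unadjusted p under 0.05 and 4 called by DESeq2. Both anti-PD-1 libraries lay above both others for 18 of 34 members. The same was true of 22.8% of genes with 1 CPM or more in an irradiated library of this sort. Il2rb had 149 and 155 CPM with anti-PD-1, against 65.9 and 83.9 CPM without it (1.06 ± 0.13, edgeR adjusted p = 0.125), and Txk had 23.3 and 20.3 CPM, against 6.66 and 10.9 CPM (1.37 ± 0.25, edgeR adjusted p = 0.125). Neither gene's groups overlapped. For Cd3e they did, with 7.31 and 5.89 CPM with anti-PD-1, against 8.56 and 5.34 CPM without it (-0.02 ± 0.25, edgeR adjusted p = 0.981). The NK marker sum was 230 and 311 CPM with anti-PD-1 in CD11c-CD11b+ cells, against 92.9 and 142 CPM without it, and 201 and 204 CPM in CD11c+CD11b+ cells, against 123 and 182 CPM. The part of NK cells in these differences was not tested.

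Anti-SIRPa, tested in the same fits, was followed by few calls among the members. In CD8 T cells 0 of 34 were called by edgeR, where 0.170% of all genes were, with 4 at an unadjusted p under 0.05 and 0 called by DESeq2. The log2 fold changes ran from -0.36 for Trat1 to 0.29 for Ptprcap, with a median of -0.08. Cd3e had 529 and 381 CPM with anti-SIRPa, against 575 and 397 CPM without it, so that each anti-SIRPa library lay below its counterpart by less than the gap between the libraries with and without anti-PD-1.

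In CD11c+CD11b+ cells 0 of 30 members were called by edgeR, where 0.154% of all genes were, with 3 at an unadjusted p under 0.05, and in CD11c-CD11b+ cells 0 of 32, where 0% of all genes were, with 2. DESeq2 called 0 in both. In CD11c+CD11b- cells Cd8b1 was the 1 member called. It was lower with anti-SIRPa, where 0.602% of all genes were, with 27.2 and 19.4 CPM, against 45.6 and 33.6 CPM without it (log2 fold change -0.79 ± 0.12, edgeR adjusted p = 0.0419). The groups did not overlap, but the call was lost without the filter on low counts, without the anti-PD-1 term and with all populations in 1 fit. Siglech had 124 and 47.3 CPM in the same libraries with anti-SIRPa, against 232 and 172 CPM without it.

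Other genes of the pathway were followed through a list of 63, of which 62 were in the file. Of these, 33 were higher in CD8 T cells than in the mean of the myeloid sorts, where 19.5% of all genes were, and 5 were lower, where 15.9% were. The higher ones were led by the receptor constant gene Trac (log2 fold change 6.02 ± 0.37, edgeR adjusted p = 1.6e-07). Against CD11c+CD11b- cells 4 were higher in CD8 T cells, where 1.55% of all genes were, and 3 were lower, where 2.74% were. With anti-PD-1 in irradiated CD8 T cells 21 were higher, where 3.28% of all genes were, and 1 was lower, where 5.71% were. Dgkz, a kinase that removes diacylglycerol and so limits RASGRP1, had 1.1 ± 0.07 (edgeR adjusted p = 0.000291) and Icos, a costimulatory receptor of the CD28 family, 1.01 ± 0.07 (edgeR adjusted p = 0.000422). Both were larger than the largest log2 fold change among the 34 members. These anti-PD-1 calls came from the fit with 1 residual degree of freedom, in which the members' calls depended on the settings. The alternatives were not followed for these other genes.

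The deposited values were per transcript, so that the transcript with the most counts over all 20 libraries could be followed across sorts. Its share of the gene differed by 20 points or more between CD8 T cells and a myeloid sort for 6 of the 31 members with 50 counts (Cd247, Cd5, Lck, Skap1, Sla2 and Vav1), where 13.5% of all genes did. At 200 counts it was 1 of 26, Vav1, where 10.6% of all genes did, so that the share of members was below that of all genes. The clearest was Cd5, in which the 2067-base transcript Cd5-201 held 69.4% of the counts in CD8 T cells, against 2.29% in CD11c+CD11b-, 2.11% in CD11c+CD11b+ and 5.73% in CD11c-CD11b+ cells. It held 0 counts in 4 of the 5 CD11c+CD11b- libraries and 12 of 105 in that of RT with anti-SIRPa, while the 2989-base, also protein-coding Cd5-204 held 62 to 105 of 75 to 124. For Vav1 the share of Vav1-201 ran from 20.7 to 72.8% among the CD8 T libraries themselves, so that its difference between sorts was within that spread. Transcript counts of 1 gene are estimates that share reads.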

How the data were processed

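RNA of 20 sorted-cell libraries, 1 for each population and treatment, was used. The values are estimated counts per transcript, used as the authors deposited them, and all were whole. The submitters' processing notes name FastQC 0.11.8, HISAT2, StringTie, edgeR 3.34.0 and the mouse genome GRCm38, with no role for a tool and no version of HISAT2 or StringTie. Of 142699 transcripts, 141469 matched GENCODE M21 and were summed to 55260 genes; the 1230 others held at most 0.399% of a library. Library totals were 21522743 to 35696925 counts. Splitting reads between transcripts, and genes such as Trbc1 and Trbc2 that share sequence, adds error that the counts do not carry.

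CPM used edgeR's TMM factors. The 17 comparisons were tested with edgeR 4.0.16 (R 4.3.3) by its quasi-likelihood test, after filterByExpr (min.count 10, min.total.count 15), and Benjamini-Hochberg adjustment over all genes tested with a threshold of 0.05. Each SE is the log2 fold change divided by the square root of the F statistic. Comparisons between populations had the treatment pool as a block, because the submitters' labels give the 4 populations of a treatment 1 pool of tumours. Each pool was 1 treatment, so these p-values measure how population differences varied over pools that also differed in treatment. Since no group had a second library, irradiation was tested with the 4 irradiated libraries as replicates and each antibody with 2 libraries against 2, so p-values measure the spread between pools that also differed in treatment. The residual degrees of freedom were 3 for irradiation, 1 for the antibodies, 4 for pairs of populations and 12 for CD8 T cells against the myeloid mean. The scripts were tested on simulated counts.

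Alternatives were RLE scaling, no filter on low counts, DESeq2 1.42.0, fits with other libraries or terms, and leaving out each pool. The members, gene lists and marker lists were chosen with earlier results of these data known. All 34 members could be named, and of the other pathway genes up to 4 a comparison with the largest change among those called.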

Additional observations from a re-analysis of the deposited data

How the results depend on the processing

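No called value changed its sign under the alternatives run. CD8 T cells against the myeloid mean gave 33 calls without the treatment pool term as with it, and 31 to 34 when a pool was left out. CD8 T against CD11c+CD11b- cells gave 15 calls without the treatment pool term and 27 without the library labelled untreated CD8 T (main value 13), and 7 to 27 when a pool was left out. CD11c+CD11b+ against CD11c-CD11b+ cells gave 14 calls without the treatment pool term and 11 with all 20 libraries in 1 fit (main value 21). Between irradiated and untreated libraries, where edgeR called 0 members in each myeloid sort, CD11c+CD11b+ cells gave 3 with DESeq2, 5 with the antibodies as terms and 0 to 4 with a pool left out. CD11c+CD11b- cells gave 16, 12 and 0 to 12 in the same settings, and CD11c-CD11b+ cells gave 10 with DESeq2 and 0 to 15 with a pool left out. The 4, the 12 and the 15 came without the RT with anti-SIRPa pool.

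For anti-PD-1 the main calls were 27 in CD8 T cells, 3 in CD11c+CD11b-, 5 in CD11c+CD11b+ and 0 in CD11c-CD11b+ cells. With all populations in 1 fit they were 2, 0, 3 and 10. Without the filter on low counts and without the other antibody's term they were 0 in the first 3 of these populations. DESeq2 called 3 in CD11c+CD11b+ and 4 in CD11c-CD11b+ cells. With a pool left out they were 0 to 16, 0 to 4, 0 to 1 and 0 to 10; the 16 came without the RT with both antibodies pool and the 4, the 1 and the 10 without the RT alone pool. The 1 call for anti-SIRPa in CD11c+CD11b- cells became 0 in each of these 3 settings, all populations in 1 fit included, and 0 with any pool left out. The cause of these losses was not tested. At a minimum of 200 counts the transcript share of 1 member, in place of 6, differed by 20 points. Leaving out a pool for the antibody tests needed the other antibody's term dropped and was added after the data were seen, because the planned version, within a fit of all populations, could not be fitted. For the members called in the tests as reported, 778 of their 920 values under alternatives other than leaving out a pool were still called and 142 were not; calls gained by other members are not among these.

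With 1 library a group, no value of a population and treatment has a replicate error, and members under 10 CPM rest on few counts.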
